A study of Mus musculus with 18 samples.

Results

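The 38 genes described here drive or mark the cell cycle, from the start of DNA replication to the separation of daughter cells. They were taken from a list of symbols chosen with earlier results of these data known. All 38 were found among the 53819 gene entries counted in the caput epididymis of mice. The list holds 10 genes of S phase and DNA replication, 8 cyclins, cyclin-dependent kinases and their activator, 8 mitotic kinases and factors of the spindle checkpoint and its ubiquitin ligase, 9 genes of the spindle, kinetochore and cytokinesis, the proliferation markers Mki67 and Top2a, and the cell cycle inhibitor Cdkn1a. Each of the 38 had 10 or more counts in at least 3 of the 18 libraries and entered the tests with 18618 genes in all.

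The caput is the proximal segment of the epididymis, the duct in which sperm mature. Libraries fell into 6 groups of 3, each labelled with 1 treatment and 1 time of collection. At 10 weeks of treatment these were 6% EtOH (ethanol), 10% EtOH and Control. After cessation of treatment, which the series title puts at a month, the same 3 treatments were collected again, so the cessation Control group had its own libraries. The labels give the same genotype, C57BL/6J, for every group. The route of ethanol, the ages of the mice, the length of treatment before cessation and any sharing of litters or cages are unknown here, as no label or title states them, so a p-value speaks only of the spread among these libraries. Replicate numbers are names and tie no libraries together.

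In a dividing cell, cyclin E and its kinase Cdk2 open S phase, the MCM helicase and the nucleotide enzymes copy the genome, and cyclins A and B with Cdk1 carry the cell into mitosis. Kinesins and kinetochore proteins then align and part the chromosomes under the watch of the spindle checkpoint, and Cdkn1a (p21) can hold the cycle still by inhibiting the kinases. The epithelium of the adult mouse epididymis is known to divide rarely, so transcripts of mitosis are scarce in it and may also come from immune or other cells of the tissue. In bulk samples such as these, fewer cells of a type and less RNA per cell cannot be told apart.

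Many genes of this kind carry 3 short promoter motifs. These are the CCAAT box, the cell cycle homology region CHR, bound by the repressive DREAM complex in resting cells and by the activating B-MYB complex late in the cycle, and sites of E2F factors that act at the start of S phase. The 250 bases before the start of the gene are shown for the member that passed a test (Mcm2), for the member with the lowest p for 6% EtOH at 10 weeks (Kif18a), and for a kinase and a checkpoint gene of mitosis (Cdk1 and Cdc20). They come from RefSeq on the mouse build GRCm38.p6, read 5′ to 3′ on the strand of the gene, with the bases of any motif found in capitals. The windows are chr6:88898781-88899030 on the minus strand for Mcm2, chr2:109280488-109280737 on the plus strand for Kif18a, chr10:69352913-69353162 on the minus strand for Cdk1, and chr4:118437344-118437593 on the minus strand for Cdc20.
Mcm2: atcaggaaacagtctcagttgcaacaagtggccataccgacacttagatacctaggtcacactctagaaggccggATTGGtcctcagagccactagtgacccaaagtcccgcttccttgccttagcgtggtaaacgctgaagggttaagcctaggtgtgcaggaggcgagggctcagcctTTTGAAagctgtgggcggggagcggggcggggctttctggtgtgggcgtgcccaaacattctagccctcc
Kif18a: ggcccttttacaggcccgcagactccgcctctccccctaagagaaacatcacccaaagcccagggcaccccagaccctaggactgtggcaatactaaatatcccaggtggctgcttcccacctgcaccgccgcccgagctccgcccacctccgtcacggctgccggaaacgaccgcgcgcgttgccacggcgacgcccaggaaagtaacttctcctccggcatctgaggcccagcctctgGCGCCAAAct
Cdk1: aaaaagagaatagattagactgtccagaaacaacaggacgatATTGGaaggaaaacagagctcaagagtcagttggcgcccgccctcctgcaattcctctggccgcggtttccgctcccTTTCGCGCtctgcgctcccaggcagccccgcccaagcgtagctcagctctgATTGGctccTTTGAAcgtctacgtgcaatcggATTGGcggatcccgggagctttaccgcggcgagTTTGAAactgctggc
Cdc20: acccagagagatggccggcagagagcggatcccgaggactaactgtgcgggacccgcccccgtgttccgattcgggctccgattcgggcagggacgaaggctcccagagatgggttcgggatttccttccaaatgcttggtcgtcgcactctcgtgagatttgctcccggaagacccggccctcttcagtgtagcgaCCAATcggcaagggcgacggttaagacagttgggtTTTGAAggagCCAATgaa
The search used CCAAT, then TTTGAA or TTCGAA for the CHR, then TTTCCCGC, TTTGGCGC, TTTCGCGC or TTTGCCGC for E2F, on both strands, so that a CCAAT box on the other strand reads ATTGG. The RefSeq table held 34 promoters for 31 of the 38 genes. A CCAAT box was in 27 of these 34 windows (79.4%), against 33.8% of all 32851 promoters. A CHR was in 11 of 34 (32.4%), against 17.1%, and all 11 also held a CCAAT box, a pair found in 6.02% of all promoters. An E2F match was in 6 of 34 (17.6%), against 1.86%. Mcm2 has a CHR 70 bases before its start and a CCAAT box 175 bases before it, Cdc20 a CHR at 18 bases and CCAAT boxes at 53 and 8 bases, and Cdk1 all 3 motifs. Kif18a holds only an E2F match, 10 bases before its start. A match describes these letters and shows no bound factor.

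Library totals were 15599991 to 21067237 assigned reads at 10 weeks and 10719320 to 17197177 after cessation, so the cessation values of these low genes rest on fewer counts. Levels are CPM, counts scaled to the size of the library with TMM factors, and differences are log2 fold changes with their standard error from edgeR's quasi-likelihood test. The threshold was an adjusted p (Benjamini-Hochberg over all 18618 genes) under 0.05. One 6% EtOH cessation library (replicate 1) carries different sample identifiers in its label and in its count table, and 1 library of 10% EtOH at 10 weeks (replicate 3) has an identifier of another kind. Defining markers of caput principal cells, which secrete the proteins that coat sperm, summed to at least 25991 CPM in every library. The sum differed between groups. At 10 weeks it was 62983 to 76896 CPM with 6% EtOH and 74325 to 92609 CPM with 10% EtOH, against 54942 to 62833 CPM in Control. The part of this difference in the levels of the cell cycle genes was not tested.

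Taken per kilobase of exon (mouse annotation GENCODE M21), the replication genes led. Pcna, the sliding clamp of the DNA polymerases, had a median of 17.99 CPM per kilobase over the 18 libraries. It was followed by the helicase subunit Mcm4 at 5.67, the inhibitor Cdkn1a at 4.74, and the helicase subunits Mcm2 at 3.69 and Mcm7 at 3.46 CPM per kilobase. Mki67 stood at 1.59 and Top2a, the topoisomerase that untangles replicated chromosomes, at 1.09 CPM per kilobase. Most mitotic genes were below these. The lowest were the phosphatase Cdc25c at 0.0673 and the kinesin Kif18a at 0.215 CPM per kilobase, with Kif23, Bub1 and Birc5 between 0.233 and 0.244. Cdc25c reached 10 counts in only 4 libraries and had 0 to 15 counts in each. The spread between libraries differed widely among the members. The highest library exceeded the lowest by 1.39-fold for Pcna (54.4 against 39.2 CPM), by 2.77-fold for the kinase Aurkb, by 6.02-fold for Cdkn1a, and by 8.41-fold for the checkpoint kinase Bub1 and 8.06-fold for cyclin A2 (Ccna2), which had at most 36 and 68 counts in a library.

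**Figure D1:**
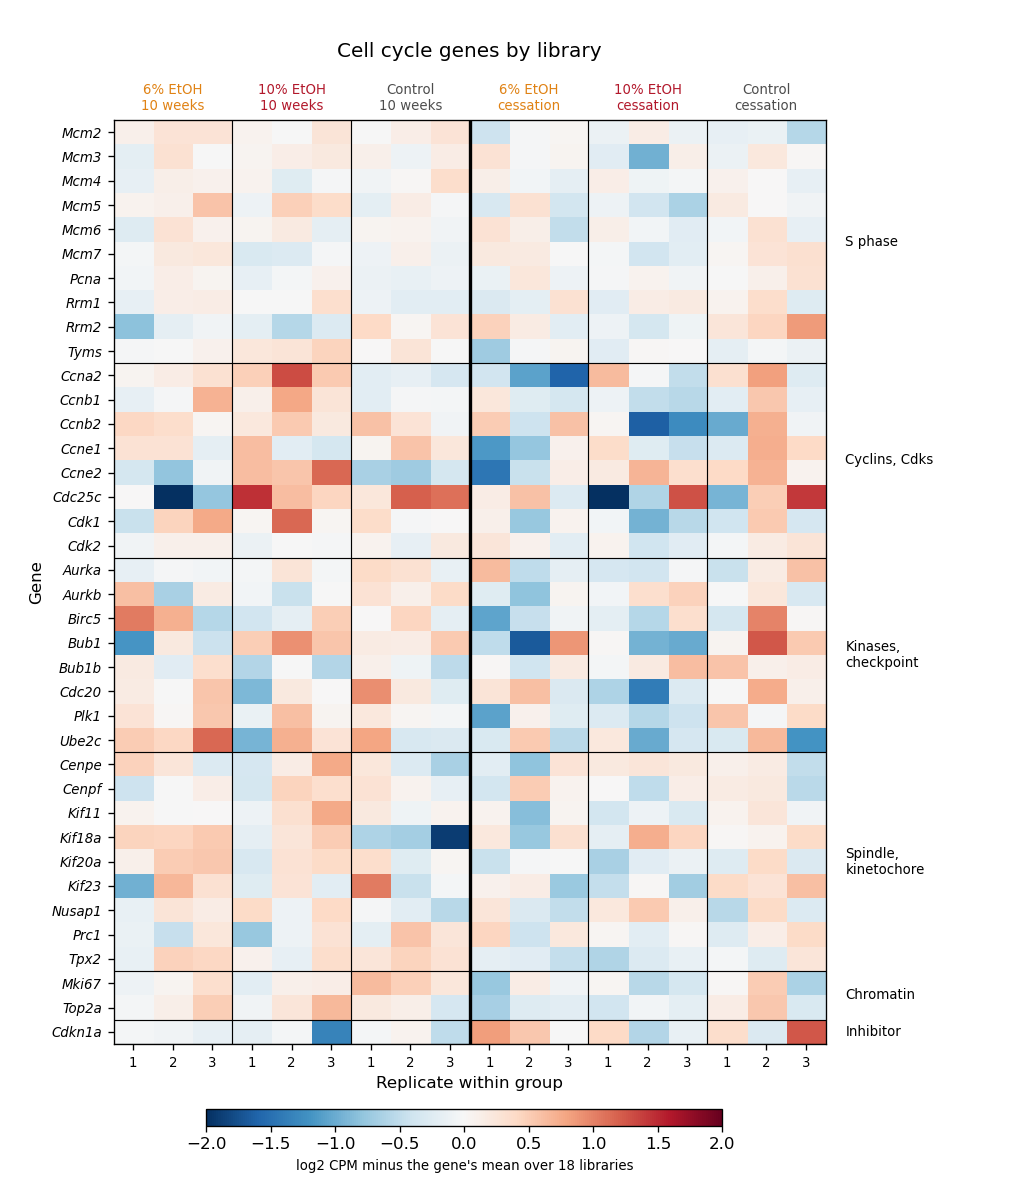
Level of the 38 cell cycle genes (rows, by role) in the 18 libraries (columns, by group), as log2 CPM minus the mean of the gene over all libraries; colours are capped at 2 in either direction. Control cessation replicate 2 is red in most cyclin and mitotic rows, and the cessation libraries of both EtOH doses are mostly blue there.

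At 10 weeks of 6% EtOH, no cell cycle gene passed, and the transcripts lay on both sides of control. Of the 38 genes, 21 had a fold change above 0 and 17 below it, with a median of 0.05 on the log2 scale, against a median of -0.01 over all genes tested. Leaving out Control replicate 1 or 2 put the median at 0.15 or 0.08. It was 0.12 with replicate 1 of 6% EtOH left out and 0.02 with its replicate 3 left out. None of the 38 passed, as 0 (0%) of all genes did, and at an unadjusted p under 0.05 there was 1 member against 2.36% of all genes. DESeq2 and limma voom also called none of the 38. In 3 members the groups did not overlap, with all EtOH libraries above all control libraries, as in 9.67% of all genes, and in 2 all of them were below, as in 9%.

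Kif18a, a kinesin that damps the movements of chromosomes at the metaphase plate, was the member with the lowest p in this comparison. It had 2.48, 2.44 and 2.60 CPM in 6% EtOH libraries and 1.61, 2.15 and 2.60 CPM in 10% EtOH libraries at 10 weeks, against 1.18, 1.13 and 0.463 CPM in Control libraries. All 6 EtOH libraries were above all 3 of Control, whose replicate 3 held 8 counts. The log2 fold change was 1.43 ± 0.40 for 6% EtOH (unadjusted p = 0.00221, edgeR adjusted p = 1) and 1.18 ± 0.40 for 10% EtOH (unadjusted p = 0.00861, edgeR adjusted p = 0.299). These 2 comparisons share their 3 control libraries. After cessation the gene had 2.09, 1.05 and 2.26 CPM with 6% EtOH and 1.59, 3.01 and 2.45 CPM with 10% EtOH, against 1.84, 1.90 and 2.38 CPM in Control. There the groups overlapped, and the 10-week control libraries were lower than the cessation ones. The overlap of its exons with the neighbouring gene Mettl15 covers 0.112% of the exon bases of Kif18a.

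Rrm2, the small subunit of ribonucleotide reductase, which makes the building blocks of DNA, leaned the other way. It had 1.85, 2.90 and 3.14 CPM in 6% EtOH and 2.86, 2.21 and 2.71 CPM in 10% EtOH libraries at 10 weeks, against 4.36, 3.38 and 3.99 CPM in Control. After cessation it had 4.53, 3.68 and 2.83 CPM with 6% EtOH and 3.05, 2.55 and 3.10 CPM with 10% EtOH, against 3.92, 4.42 and 5.95 CPM in Control. The EtOH libraries were below all control libraries in each of these comparisons except 6% EtOH after cessation, where the groups overlapped. The log2 fold changes were -0.57 ± 0.28 and -0.59 ± 0.28 at 10 weeks for 6% and 10% EtOH, and -0.37 ± 0.28 and -0.71 ± 0.28 after cessation, with an unadjusted p under the threshold only in the last (0.0219). None passed with edgeR after adjustment (adjusted p = 1, 0.375, 1 and 0.744 in that order).

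Cdc25c, the phosphatase that switches Cdk1 on, had the next p at 6% EtOH, after Rrm2. It had 0.255, 0 and 0.134 CPM in 6% EtOH libraries and 0.753, 0.403 and 0.354 CPM in 10% EtOH libraries, against 0.308, 0.619 and 0.578 CPM in Control at 10 weeks. After cessation it had 0.279, 0.394 and 0.189 CPM with 6% EtOH and 0, 0.15 and 0.649 CPM with 10% EtOH, against 0.119, 0.368 and 0.728 CPM in Control. At this depth no value is far from a few counts, and the fitted difference of -1.91 ± 1.01 for 6% EtOH at 10 weeks (unadjusted p = 0.074, edgeR adjusted p = 1) says little. Pcna, by contrast, was well counted. It had 42.4, 48.2 and 46.1 CPM in 6% EtOH and 39.2, 43.1 and 46.8 CPM in 10% EtOH libraries at 10 weeks, against 40.6, 39.8 and 41.1 CPM in Control. Its 6% EtOH libraries were all above Control, by a log2 fold change of 0.17 ± 0.12. After cessation Pcna had 40.2, 51.4 and 41.2 CPM with 6% EtOH and 43.3, 46.5 and 41.8 CPM with 10% EtOH, against 44.0, 47.4 and 54.4 CPM in Control, and the groups overlapped.

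At 10 weeks of 10% EtOH, the members with the lowest p were 2 cyclins and Kif18a, all higher than control, while the marker Mki67 was lower in every EtOH library. Again 21 of 38 genes were above 0 and 17 below, with a median of 0.03 against -0.01 over all genes. Without 10% EtOH replicate 2 the tally turned, with 17 above 0 and 21 below and a median of -0.07, and the median was 0.14 without Control replicate 1 and 0.10 without 10% EtOH replicate 1. None of the 38 passed, as 0 of all genes did, nor did any with DESeq2 or limma voom, while 3 members had an unadjusted p under 0.05 against 13.4% of all genes. Groups did not overlap for 5 members that were higher, against 15.2% of all genes, and for 3 that were lower, against 15.5%. The members thus differed no more often than other genes in this comparison, though low counts limit what most mitotic members could show. Of the cyclins and their partners, 6 of 8 were above 0, while 6 of 8 mitotic kinases and checkpoint genes were below it.

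Ccne2, the cyclin E2 that starts S phase with Cdk2, had 1.98, 1.45 and 2.40 CPM in 6% EtOH and 3.87, 3.69 and 5.605 CPM in 10% EtOH libraries at 10 weeks, against 1.59, 1.52 and 1.97 CPM in Control. The 10% EtOH libraries were all above those of both other groups, with a mean of 4.39 ± 1.06 CPM against 1.69 ± 0.24 CPM in Control (SD, n = 3 each). The log2 fold change for 10% EtOH was 1.37 ± 0.36 (unadjusted p = 0.00127, edgeR adjusted p = 0.299), and the adjusted p was 0.0287 where only the 9 libraries of 10 weeks were fitted. In that fit 1059 of 17154 genes passed, and Ccne2 was the only 1 of the 38 members to do so. After cessation Ccne2 had 0.905, 1.84 and 2.73 CPM with 6% EtOH and 2.85, 4.06 and 3.17 CPM with 10% EtOH, against 3.32, 4.11 and 2.65 CPM in Control. The 6% EtOH group was lower there, with a log2 fold change of -0.90 ± 0.37 (unadjusted p = 0.0247, edgeR adjusted p = 1) and an overlap of 1 library with the range of Control.

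The exons of Ccne2 overlap on the opposite strand with Ints8, a subunit of the Integrator complex, over 17.4% of their bases, and the strand setting of the counting is not given in the sources used here. Ints8 had 33.7, 28.4 and 49.6 CPM in 10% EtOH libraries at 10 weeks, against 19.0, 20.7 and 26.4 CPM in Control. Its log2 fold change was 0.76 ± 0.24, with the same adjusted p of 0.299. Both genes were highest in 10% EtOH replicate 3 of the 10-week libraries. Reads of the shared bases cannot be told apart, and the part of Ints8 in the value of Ccne2 was not tested.

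Ccna2, the cyclin A2 of S phase and early mitosis, had 1.91, 2.03 and 2.27 CPM in 6% EtOH and 2.56, 4.56 and 2.65 CPM in 10% EtOH libraries at 10 weeks, against 1.59, 1.63 and 1.45 CPM in Control. Every EtOH library was above every Control library, and replicate 2 of 10% EtOH stood apart. The log2 fold changes were 0.41 ± 0.40 for 6% EtOH and 1.06 ± 0.39 for 10% EtOH (unadjusted p = 0.0148, edgeR adjusted p = 0.299). After cessation it had 1.39, 0.854 and 0.566 CPM with 6% EtOH and 2.85, 1.80 and 1.30 CPM with 10% EtOH, against 2.32, 3.25 and 1.52 CPM in Control. The order was then turned for 6% EtOH, whose 3 libraries were all below Control, by a log2 fold change of -1.31 ± 0.42 (unadjusted p = 0.00562, edgeR adjusted p = 1). For 10% EtOH the groups overlapped. The exons of Ccna2 share 12.5% of their bases with Exosc9 on the opposite strand, which had a log2 fold change of 0.23 ± 0.12 for 10% EtOH at 10 weeks and of -0.02 ± 0.12 for 6% EtOH after cessation.

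Mki67, the standard marker of cycling cells, did not follow the cyclins at 10 weeks. It had 14.5, 16.1 and 19.6 CPM in 6% EtOH and 13.4, 16.6 and 16.9 CPM in 10% EtOH libraries, against 24.2, 21.5 and 18.1 CPM in Control. The 10% EtOH libraries were all below Control (log2 fold change -0.44 ± 0.26, unadjusted p = 0.102, edgeR adjusted p = 0.456), and those of 6% EtOH overlapped with it. Top2a had 9.88, 11.04 and 14.4 CPM in 6% EtOH and 9.74, 12.1 and 15.99 CPM in 10% EtOH libraries, against 11.6, 11.04 and 8.10 CPM in Control, with overlapping groups and log2 fold changes of 0.20 ± 0.24 and 0.30 ± 0.24. The other members with separate groups at 10% EtOH were Rrm1, the large subunit of ribonucleotide reductase, and cyclin B1 (Ccnb1), which were higher, and the kinase Aurkb, which was lower.

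**Figure D2:**
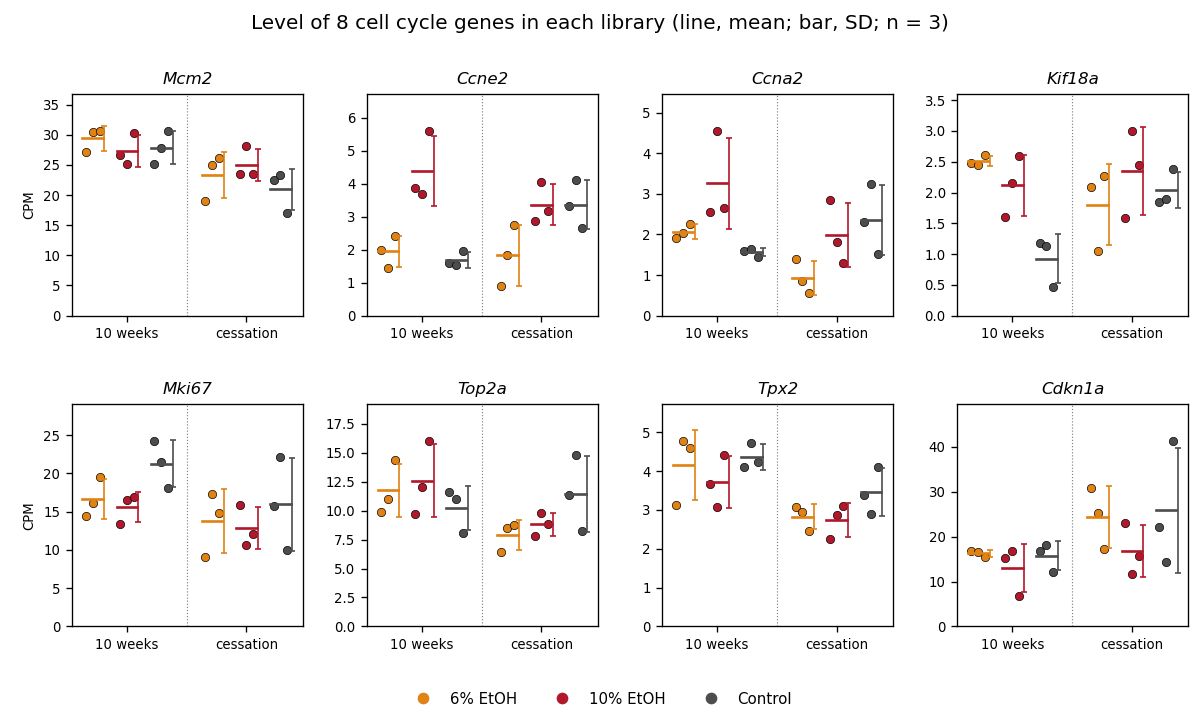
CPM of 8 cell cycle genes in each library (points), by time and treatment, with the mean of each group (line) and its SD (bar, n = 3); each vertical axis starts at 0. Kif18a and Ccna2 are higher in all EtOH libraries than in Control at 10 weeks, and Ccna2 is lower in the 6% EtOH libraries after cessation.

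After cessation of 6% EtOH, 32 of the 38 genes were below control and 6 above it, with a median log2 fold change of -0.14, against -0.01 over all genes, of which 52.0% were below 0. None of the 38 passed with edgeR, as 0 of all genes did, nor did any with DESeq2 or limma voom, and 4 members had an unadjusted p under 0.05, all lower, against 1.62% of all genes. That count was 1 without Control replicate 2 or without 6% EtOH replicate 1 of cessation, and 1 where only the 9 cessation libraries were fitted. Groups did not overlap for 2 members that were lower, Ccna2 and the cytokinesis kinesin Kif23 (against 2.01% of all genes), and for 0 that were higher, against 2%. By role, the share below 0 was 8 of 10 S phase genes, 7 of 8 cyclins and kinases, 7 of 8 mitotic kinases and checkpoint genes, 7 of 9 spindle and kinetochore genes, and both Mki67 and Top2a.

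After cessation of 10% EtOH the lean was of the same kind, with 31 of the 38 genes below control and 7 above it. The median log2 fold change was -0.32, against -0.02 over all genes, of which 52.1% were below 0. None of the 38 passed with edgeR, as 0 of all genes did, nor did any with DESeq2 or limma voom, and 4 members had an unadjusted p under 0.05, all lower, against 6.66% of all genes. That count was 0 without 10% EtOH cessation replicate 2, 7 without replicate 1 of that group, and 2 where only the 9 cessation libraries were fitted. Groups did not overlap for 8 members that were lower, against 3.97% of all genes, and for 2 that were higher, against 2.49%. The 8 were Mcm7, Rrm2, Cdc20, Bub1, Plk1, Kif23, Mcm5 and Kif11, and the 2 were Mcm2 and Cenpe. Several gaps were narrow. The highest EtOH and lowest Control values were 0.929 and 0.95 CPM for Bub1, 3.91 and 3.97 CPM for Kif11, and 7.63 and 7.80 CPM for Mcm5. The lowest EtOH and highest Control values were 23.5 and 23.3 CPM for Mcm2 and 6.42 and 6.32 CPM for Cenpe. Gaps were wider for the other members named. All 8 cyclins and kinases were below 0, as were 7 of 8 mitotic kinases and checkpoint genes. This comparison and that of 6% EtOH share the 3 cessation Control libraries.

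Single libraries moved both counts. Without Control cessation replicate 2, 23 of 38 genes were below 0 for 6% EtOH with a median of -0.08, and 23 of 38 for 10% EtOH with a median of -0.14. Over all genes 47.7% and 50.4% were then below 0. Without Control cessation replicate 1, 35 of 38 were below 0 for 6% EtOH with a median of -0.23, and 29 of 38 for 10% EtOH with a median of -0.35. Leaving out a 6% EtOH library left 26 to 33 below 0, with the median at -0.30 without replicate 1. Control cessation replicate 2 stood out among all 18. Leaving aside the 10 S phase genes and Cdkn1a, 24 of the remaining 27 members lay above their median there, and their mean level was 0.42 above the mean of the genes over all libraries on the log2 scale.

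The same 27 genes can be followed library by library. Their mean centred log2 level was -0.21, -0.31 and -0.11 in the 6% EtOH libraries after cessation and -0.20, -0.31 and -0.13 in those of 10% EtOH, against -0.08, 0.42 and 0.02 in Control. At 10 weeks it was 0.01, -0.00 and 0.20 with 6% EtOH and -0.05, 0.31 and 0.27 with 10% EtOH, against 0.20, 0.05 and -0.09 in Control. The 6 EtOH cessation libraries were thus the lowest of the 18, although the nearest control libraries, at -0.08 and -0.09, lay close by. These 6 libraries held 10719320 to 15356097 assigned reads, against 12903045 to 17197177 in Control after cessation and at least 15599991 at 10 weeks. The part of depth in their rank was not tested. The 10 S phase genes were more even, between -0.18 and 0.15 in every library. Their median counts ran from 53 (Rrm2) to 708.5 (Pcna), against 6 (Cdc25c) to 264.5 (Mki67) among the 27. The part of these counts in the evenness was not tested. The 3 lowest libraries of the S phase genes were 10% EtOH cessation replicate 2, 6% EtOH replicate 1 of 10 weeks and 10% EtOH cessation replicate 3.

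**Figure D3:**
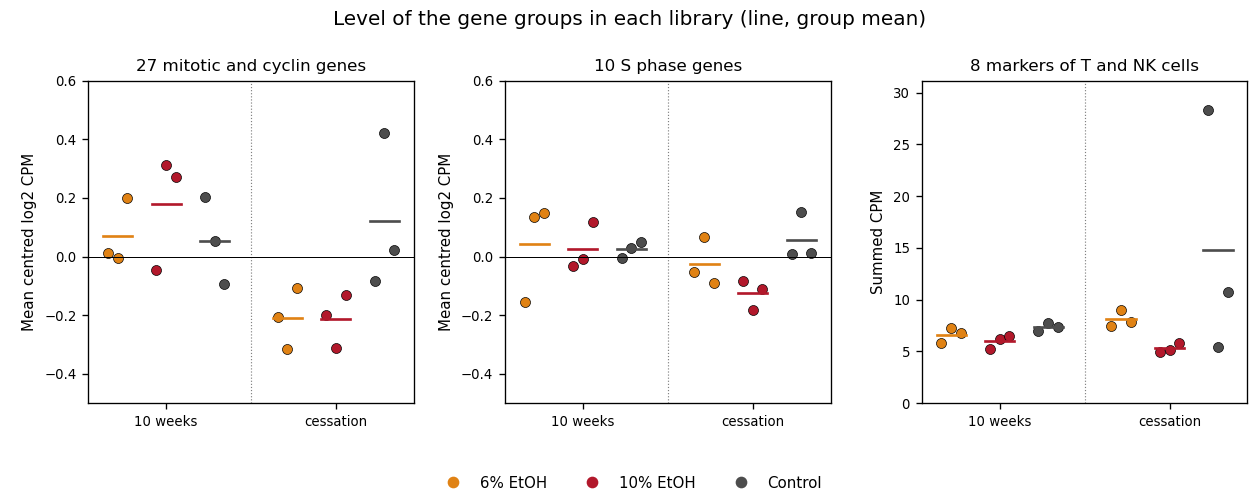
Mean centred log2 level of the 27 cyclin, kinase and mitotic genes (left) and of the 10 S phase genes (centre), and summed CPM of 8 markers of T and NK cells (right), in each library (points) with group means (lines). The EtOH cessation libraries are the lowest in the left panel, and 1 Control cessation library is far above all others in the right panel.

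Markers of T and NK cells had fold changes below 0 after cessation of EtOH without passing, and the tested markers of B cells had fold changes above 0. All 8 markers of T and NK cells, blood cells that can divide in tissue, were below 0 for both doses, with medians of -0.96 for 6% EtOH and -1.91 for 10% EtOH. With edgeR 0 passed, and 1 and 6 had an unadjusted p under 0.05, against 1.62% and 6.66% of all genes. The summed level of the 8 markers was 7.45 to 9.0 CPM with 6% EtOH and 4.91 to 5.77 CPM with 10% EtOH, against 5.40 to 28.3 CPM in Control, so that the groups overlapped for both doses. All 3 tested markers of B cells were above 0, with medians of 0.40 for 6% EtOH and 0.95 for 10% EtOH and 0 past either threshold. Cd3d was at 0 in 2 of the 18 libraries and Nkg7 in 4, and the other 6 markers were detected in all. Control cessation replicate 2, the library highest in mitotic genes, had the lowest sum of the Control libraries, 5.40 CPM, and the 28.3 CPM belonged to replicate 1. The sum of replicate 2 was below that of every 6% EtOH cessation library, and Control libraries of 10 weeks had 6.93 to 7.71 CPM. The part of Control cessation replicate 1 in these fold changes was not tested. Of 8 tested markers of meiotic germ cells, 8 were below 0 for 6% EtOH and 5 for 10% EtOH, and the 12 listed summed to 21.0 to 39.8 CPM and 15.99 to 35.5 CPM, against 21.7 to 46.5 CPM in Control. Hormad1 was at 0 in 9 libraries and Sycp3 and Tex101 in 5 each. Markers of other cells also differed. Of 5 basal cell markers, 4 were below 0 for 6% EtOH (median -0.14) and 5 for 10% EtOH (median -0.42). Of 5 endothelial markers, 4 (median -0.07) and 5 (median -1.06) were below 0. For 10% EtOH, 4 basal and 1 endothelial markers had an unadjusted p under 0.05, against 6.66% of all genes, and none passed. Of 5 adipocyte markers, 5 and 4 were above 0. The part of all these cells in the levels of the cell cycle genes was not tested.

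Mcm7, a subunit of the replicative helicase, had the lowest p for 10% EtOH after cessation. It had 17.7, 17.4 and 15.4 CPM with 6% EtOH and 14.998, 11.9 and 13.3 CPM with 10% EtOH, against 15.8, 18.6 and 19.2 CPM in Control. The 10% EtOH libraries were all below Control, by a log2 fold change of -0.42 ± 0.15 (unadjusted p = 0.0107, edgeR adjusted p = 0.744). At 10 weeks it had 15.04, 17.7 and 18.1 CPM in 6% EtOH and 12.6, 12.8 and 15.2 CPM in 10% EtOH libraries, against 14.3, 16.5 and 14.2 CPM in Control, and the groups overlapped. The exons of Mcm7 share 7.25% of their bases with Ap4m1 and 1.45% with Cops6, both on the opposite strand. The part of these neighbours in the value of Mcm7 was not tested.

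The checkpoint pair Cdc20 and Bub1 showed larger but less certain differences. Cdc20, the activator of the ligase that starts anaphase, had 2.93, 3.74 and 1.98 CPM with 6% EtOH and 1.59, 0.902 and 2.02 CPM with 10% EtOH after cessation, against 2.43, 4.11 and 2.65 CPM in Control. All 10% EtOH libraries were below Control, with a log2 fold change of -1.02 ± 0.42 (unadjusted p = 0.0247, edgeR adjusted p = 0.744). At 10 weeks Cdc20 had 2.74, 2.44 and 3.60 CPM in 6% EtOH and 1.31, 2.82 and 2.48 CPM in 10% EtOH libraries, against 4.72, 2.82 and 2.08 CPM in Control. Those groups overlapped.

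Bub1, a kinase of the spindle checkpoint, had 0.627, 0.263 and 1.70 CPM with 6% EtOH and 0.929, 0.451 and 0.433 CPM with 10% EtOH after cessation, against 0.95, 2.21 and 1.32 CPM in Control. The 10% EtOH libraries were again all below Control, replicate 1 only just, and the log2 fold change was -1.29 ± 0.58 (unadjusted p = 0.04, edgeR adjusted p = 0.744). At 10 weeks Bub1 had 0.382, 1.05 and 0.668 CPM in 6% EtOH and 1.31, 1.74 and 1.36 CPM in 10% EtOH libraries, against 1.03, 1.01 and 1.33 CPM in Control, with overlapping groups. Its highest value anywhere was in Control cessation replicate 2.

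Ccne1, the cyclin E1 sister of Ccne2, had 1.11, 1.45 and 2.64 CPM with 6% EtOH and 3.25, 2.10 and 1.80 CPM with 10% EtOH after cessation, against 2.08, 4.17 and 3.31 CPM in Control. The groups overlapped, and the log2 fold change for 6% EtOH was -0.89 ± 0.40 (unadjusted p = 0.0377, edgeR adjusted p = 1). At 10 weeks it had 3.06, 3.08 and 2.20 CPM in 6% EtOH and 3.87, 2.15 and 1.95 CPM in 10% EtOH libraries, against 2.62, 3.72 and 2.95 CPM in Control. Neither dose stood apart there.

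The proliferation markers Top2a and Mki67 both had fold changes below 0 after cessation of EtOH, and Top2a had the lower p. Top2a had 6.41, 8.47 and 8.77 CPM with 6% EtOH and 7.83, 9.77 and 8.87 CPM with 10% EtOH, against 11.3, 14.8 and 8.20 CPM in Control. Only replicate 3 of Control lay within the range of the EtOH libraries, and the log2 fold changes were -0.54 ± 0.24 for 6% EtOH (unadjusted p = 0.0406, edgeR adjusted p = 1) and -0.38 ± 0.24 for 10% EtOH. Mki67 had 9.12, 17.3 and 14.8 CPM with 6% EtOH and 15.9, 10.6 and 12.1 CPM with 10% EtOH, against 15.8, 22.2 and 9.99 CPM in Control. Its Control libraries overlapped with nearly the whole range of the EtOH ones, and the log2 fold changes were -0.22 ± 0.26 and -0.31 ± 0.26.

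**Figure D4:**
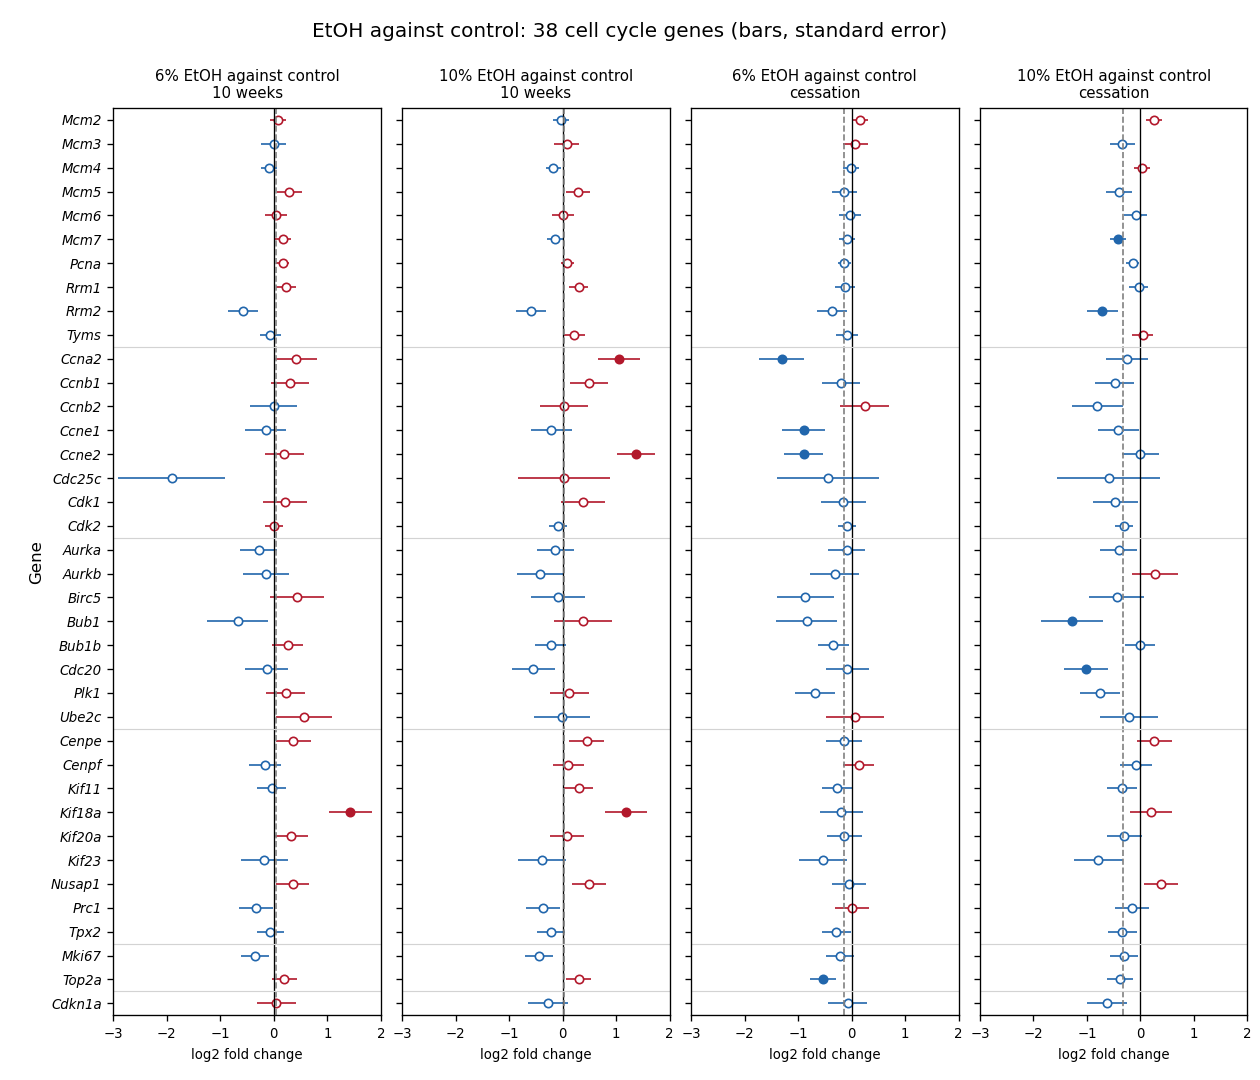
Log2 fold change of the 38 cell cycle genes (rows, by role) in the 4 comparisons of EtOH with control, with standard errors as bars; red is above 0 and blue below, filled points have an unadjusted p under 0.05, and the dashed line is the median of the 38. The medians are 0.05 and 0.03 at 10 weeks and -0.14 and -0.32 after cessation, and no point passed after adjustment over all genes.

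Whether an EtOH effect differed between the times was tested as the difference of the effects. For 6% EtOH, 27 of 38 genes were lower after cessation by this measure, with a median of -0.25 against 0.00 over all genes, and for 10% EtOH 32 of 38, with a median of -0.30 against -0.03. No member passed in either, as 0 of all genes did, nor did any with DESeq2 or limma voom. At an unadjusted p under 0.05 there were 4 members for 6% EtOH, against 3.01% of all genes, and 2 for 10% EtOH, against 7.44%. With 1 library left out these counts were 2 to 5 and 1 to 5. For 6% EtOH the lowest p belonged to Ccna2 (-1.72 ± 0.57 on the log2 scale, unadjusted p = 0.00785, edgeR adjusted p = 1.0), Kif18a (-1.62 ± 0.56) and Top2a (-0.74 ± 0.34). For 10% EtOH it belonged to Ccne2 (-1.37 ± 0.50, unadjusted p = 0.0135, edgeR adjusted p = 0.645), Ccna2 (-1.31 ± 0.56) and Bub1 (-1.67 ± 0.80). Without Control cessation replicate 2, 22 of 38 genes were lower for 6% EtOH with a median of -0.11, and 27 of 38 for 10% EtOH with a median of -0.21.

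Across the 3 treatments, cessation libraries were set against those of 10 weeks, a contrast that holds everything that differed between the collections. One of the 38 genes passed, Mcm2, which fell, while 17.9% of all genes passed. The members' share was therefore below the background, though low counts limit what most mitotic members could show. Of the 38, 29 were below 0 and 9 above, with a median log2 fold change of -0.15, against 0.05 over all genes. At an unadjusted p under 0.05 there were 8, against 36.7% of all genes, and of these 8 only Cdkn1a was higher. With 1 library left out the count was 3 to 12.

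Mcm2, a subunit of the helicase loaded on DNA before replication, had 18.9, 24.96 and 26.1 CPM with 6% EtOH, 23.5, 28.1 and 23.5 CPM with 10% EtOH and 22.6, 23.3 and 16.999 CPM in Control after cessation. At 10 weeks it had 27.1, 30.6 and 30.7 CPM with 6% EtOH, 26.7, 25.2 and 30.3 CPM with 10% EtOH and 25.1, 27.8 and 30.6 CPM in Control. Values after cessation were lower on average in each treatment, with some overlap, and the log2 fold change was -0.29 ± 0.09 (edgeR adjusted p = 0.0337). The lowest values were in Control replicate 3 and 6% EtOH replicate 1 of cessation. Markers of principal cells were also lowest in these libraries (26124 and 25991 CPM in sum). The part of that difference in the level of Mcm2 was not tested. The call is narrow, since it was lost (adjusted p 0.0547 to 0.0734) without any 1 of 8 libraries, namely Control replicates 2 and 3, 6% EtOH replicates 2 and 3 or 10% EtOH replicate 1 of 10 weeks, or Control replicate 3, 6% EtOH replicate 1 or 10% EtOH replicate 3 of cessation. The other 5 subunits of the helicase did not pass, and Mcm5 had an unadjusted p of 0.0357 (-0.31 ± 0.13).

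Tpx2, which nucleates spindle microtubules and activates Aurka, came next. It had 3.06, 2.96 and 2.45 CPM with 6% EtOH, 2.26, 2.86 and 3.10 CPM with 10% EtOH and 3.38, 2.88 and 4.10 CPM in Control after cessation. At 10 weeks it had 3.12, 4.76 and 4.61 CPM with 6% EtOH, 3.67, 3.09 and 4.42 CPM with 10% EtOH and 4.11, 4.73 and 4.22 CPM in Control. Cessation values were lower in most libraries, and the log2 fold change was -0.44 ± 0.15 (edgeR adjusted p = 0.0507). Tyms, which makes thymidylate, Cdk1, Top2a and Mki67 were also lower at an unadjusted p under 0.05, with log2 fold changes of -0.26 ± 0.11, -0.54 ± 0.24, -0.31 ± 0.14 and -0.32 ± 0.15 and edgeR adjusted p from 0.106 to 0.129.

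Cdkn1a, which encodes the kinase inhibitor p21 and is induced by p53 and by stress, was the 1 member above 0 among those with an unadjusted p under 0.05. It had 30.9, 25.4 and 17.2 CPM with 6% EtOH, 23.0, 11.6 and 15.6 CPM with 10% EtOH and 22.1, 14.2 and 41.2 CPM in Control after cessation. At 10 weeks it had 16.8, 16.6 and 15.4 CPM with 6% EtOH, 15.3, 16.8 and 6.84 CPM with 10% EtOH and 16.9, 18.2 and 12.1 CPM in Control. The highest 3 values were Control replicate 3 and 6% EtOH replicates 1 and 2 of cessation, and the lowest was 10% EtOH replicate 3 of 10 weeks. The log2 fold change of 0.56 ± 0.21 missed the threshold (edgeR adjusted p = 0.0765). Between EtOH and control it was 0.05 ± 0.37 and -0.28 ± 0.37 at 10 weeks, and -0.07 ± 0.37 and -0.62 ± 0.37 after cessation, for 6% and 10% EtOH in each case.

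Genes of rapid response to stimuli moved with the same contrast. Of 14 immediate early genes, 13 rose and 1 fell after cessation, with Fos at 5.23 ± 0.47 and Atf3 at 4.77 ± 0.38 on the log2 scale. Their summed level was highest in the same libraries as Cdkn1a, at 2491 CPM in Control replicate 3, 2070 CPM in 6% EtOH replicate 1 and 2038 CPM in 6% EtOH replicate 2 of cessation, against 537 to 706 CPM in the 9 libraries of 10 weeks. Markers of endothelium were also highest in Control replicate 3 and 6% EtOH replicate 1 of cessation (222 and 199 CPM in sum), and those of principal cells were lowest there (26124 and 25991 CPM). The part of these differences in the level of Cdkn1a was not tested.

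Other genes of the cycle were counted from lists of the same pathway. In the contrast of cessation with 10 weeks, where 17.9% of all genes passed, their counts are read against that share. Among 20 further targets of p53, 4 rose with cessation and 1 fell, with a median of 0.01 over the list against 0.05 over all genes. The risers were the antiproliferative Btg2 at 2.29 ± 0.25, the cytokine Gdf15 at 3.99 ± 0.78, the kinase Plk2 at 0.78 ± 0.18 and Phlda3 at 0.51 ± 0.13, and the stress sensor Sesn1 fell by 0.26 on the log2 scale. Of 21 genes of G1 control 3 passed, with a median of -0.07. The growth factor target Myc rose by 2.02 ± 0.35 and cyclin D2 (Ccnd2) by 0.78 ± 0.25, while cyclin D1 (Ccnd1) fell by 0.32 on the log2 scale. Of 49 other genes of mitosis 1 fell, the Cdk subunit Cks1b (-0.36 ± 0.11), with a median of -0.00 over the list. None of 35 other replication genes and none of 8 tested inhibitors passed, with 4 and 3 of them at an unadjusted p under 0.05, against 36.7% of all genes. With edgeR, none of the genes in these lists passed in any comparison of EtOH with control. The 49 other mitotic genes leaned as the members did after cessation of EtOH, with 37 below 0 for 6% EtOH (median -0.19) and 42 for 10% EtOH (median -0.25), while the 35 replication genes had medians of -0.04 and -0.05. These genes were counted in the same libraries and against the same controls as the members, so they add no separate evidence.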

How the data were processed

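Bulk RNA of the mouse caput epididymis was sequenced in 18 libraries. The deposited values are whole-number read counts per gene, 1 table a library, with no pooling; per the file headers each was counted from a STAR alignment. Trimmomatic, STAR and featureCounts and the build GRCm39 (mm39) are named per the submitters' processing notes, and no version, annotation release, strand setting or rule for reads with several matches is stated there. Overlapping genes on opposite strands and pseudogene copies (Ccnb2-ps had 4 to 36 counts a library, Pcna-ps2 0 to 12, Tyms-ps 0 to 2) therefore make counts uncertain.

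The 38 genes and all other lists were chosen with earlier results of these data known. Genes were kept with filterByExpr (minimum count 10), scaled by TMM (factors 0.914 to 1.20) and tested with edgeR 4.0.16 in R 4.3.3. The robust quasi-likelihood F test was fitted over all 18 libraries with 1 term a group, which gave 7 comparisons. These set both EtOH doses against the control group of the same time, cessation against 10 weeks as the mean of the 3 treatments, and the difference of each EtOH effect between the times. P-values were two-sided and adjusted by Benjamini-Hochberg over 18618 genes at 0.05. Standard errors follow from the F statistic. Levels centred per gene used log2(CPM) with 0.5 added to each count. The test was checked on simulated counts. Genes given in every library were those past the threshold, the 3 of lowest p in each comparison, and Mki67, Top2a, Pcna and Cdkn1a.

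Alternatives were RLE scaling, no filter, 10 counts in at least 9 libraries, no robust option, DESeq2 1.42.0, limma voom 3.58.1, only the 9 libraries of a time, and leaving out each library. Exon lengths and overlaps came from GENCODE M21, and promoters from RefSeq GRCm38.p6; both are of an earlier build and gave no coordinates for the counts. Markers of other cell types were summed per library.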

Additional observations from a re-analysis of the deposited data

Results flagged for a closer look

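Ccna2, the cyclin A2 of S phase and early mitosis, met the rule for an effect that goes opposite ways at 2 times. With 6% EtOH it was above all Control libraries at 10 weeks (1.91, 2.03 and 2.27 CPM, against 1.59, 1.63 and 1.45 CPM) and below all of them after cessation (1.39, 0.854 and 0.566 CPM, against 2.32, 3.25 and 1.52 CPM). The difference of the effects was -1.72 ± 0.57 on the log2 scale (unadjusted p = 0.00785), and edgeR's quasi-likelihood test gave an adjusted p of 1.0 over all genes. Over 24 alternatives the difference lay between -2.13 and -1.42, with an adjusted p of 0.732 or more. The libraries held 6 to 68 counts of this gene, and its exons overlap with those of Exosc9 on the opposite strand, whose difference of effects was -0.05 ± 0.17.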

How the results depend on the processing

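In the 6 comparisons that involve EtOH, 0 of the 38 genes passed under every alternative, except that 1 (Ccne2) passed for 10% EtOH at 10 weeks where only the 9 libraries of that time were fitted. In that fit 1059 of all 17154 genes passed. For cessation against 10 weeks 1 passed (Mcm2), against 3 with no filter on low counts (Cdkn1a, Mcm2 and Mki67), 2 with no robust option (Mcm2 and Tpx2), 3 with DESeq2 (Cdkn1a, Mcm2 and Tpx2), and 0 to 5 when 1 library was left out. The 5 (Cdk1, Cdkn1a, Mcm2, Mki67 and Top2a) came without Control cessation replicate 2, where 5811 of all 19393 genes passed. Among all 18618 genes, 3335 passed in the main fit, 3374 with no robust option and 4711 with DESeq2. With no filter 4592 of 36360 passed. The cause of these moves was not tested. No gene among the 3 of lowest p in a comparison changed direction there under any alternative that gave it a value.

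Counts over all genes moved more. For 10% EtOH at 10 weeks 0 passed, against 73 with DESeq2, 736 with no filter and 1059 with only the 9 libraries of that time. With no filter, 44 passed for 6% EtOH at 10 weeks, 51 and 407 for 6% and 10% EtOH after cessation, and 88 and 385 for the differences of the effects, where DESeq2 gave 0 and 2; DESeq2 also gave 1 for 6% EtOH after cessation. For 10% EtOH after cessation 191 passed without Control cessation replicate 2. For cessation against 10 weeks 3335 passed, and 850 to 5811 with 1 library left out. The median of the 38 genes was -0.30 for 6% EtOH after cessation without its replicate 1, against -0.14 with it. No paired analysis was possible because no label ties a library of 1 group to a library of another. Most mitotic members had under 100 counts a library, which limits what 3 libraries a group can show.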

Other observations

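Genes of G1 control, which act before the cell commits to S phase, were mostly below control at 10 weeks. Of 21 such genes, 18 were below 0 for 6% EtOH (median log2 fold change -0.13) and 18 for 10% EtOH (median -0.18), against medians of -0.01 over all genes. With edgeR none passed, as 0 of all genes did, and 1 and 3 had an unadjusted p under 0.05, against 2.36% and 13.4% of all genes. After cessation 9 of 21 were below 0 for 6% EtOH and 14 of 21 for 10% EtOH. Markers of macrophages, 8 of 8, were above 0 for both doses at 10 weeks, with medians of 0.22 and 0.41, and 7 of 8 were below 0 for both doses after cessation; none passed. The 2 doses share their control libraries at each time.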
